A study of Mus musculus with 86 samples.

Results

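The probes described here are those whose counts were lower at 6 h than at 0 h after UVB in the epithelium of mouse skin. They were chosen by their measured values. Counts were summed over the tissue segments of each mouse, skin layer and time and scaled by the total of that sum to CPM, the usual count scale of sequencing libraries, and a probe was a member if its mean over 3 mice at 0 h was at least 100 CPM in a PanCK layer and its 6 h value was at most 0.6 times the 0 h value in each of the 3 mice in that layer. The rule found 113 members among 20175 listed probes: 45 in PanCK epidermis and 76 in PanCK deep dermis, with 8 in both, 37 in PanCK epidermis only and 68 in PanCK deep dermis only. Because 6 h and 0 h in the PanCK layers chose the members, their values in the layer that chose them are given as a description and without a test.

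The study placed regions on sections of dorsal skin and split each into areas positive for PanCK, a stain for the keratins of epithelial cells, and areas positive for CD45, a surface protein of leukocytes. All samples came from female C57BL/6 mice, wild type, of 12 to 16 weeks, whose shaved backs received a single UVB dose of 500 mJ/cm2 (290 to 320 nm). Biopsies labelled 0 h, 6 h and 24 h after that exposure carry the same 3 mouse numbers, 208, 210 and 219, so every group here is n = 3 mice except CD45 areas of adipose tissue at 6 h, where mouse 208 has no segment. The 85 tissue segments gave 44 sums over 5 compartments, namely PanCK epidermis, PanCK deep dermis, CD45 epidermis, CD45 deep dermis and CD45 adipose. The 6 h and 24 h biopsies are set against those labelled 0 h, and no unexposed mice are among the samples used here.

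Skin epithelium is made of keratinocytes. In the epidermis they divide in a basal layer and mature on the way to the surface, and in the dermis keratin-positive epithelium belongs to hair follicles and the glands attached to them. UVB damages DNA in these cells, and the keratinocyte response to that damage includes arrest of division, altered transcription and, for some cells, death. The files name each probe only by an identifier (RTS followed by digits) and pair none with a gene, so no gene, role or sequence is given for a member, and the labels epidermis and PanCK could not be set against marker genes. In such bulk segments, fewer cells that use a transcript and less of that transcript per cell cannot be told apart.

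Totals per segment ran between 4244 and 256121 counts. The sums held 86613 to 433425 counts in PanCK epidermis, 58790 to 263625 in PanCK deep dermis and 17076 to 422250 in the CD45 compartments. PanCK epidermis was shallowest at 24 h, with sums of 86613 to 111738 counts, against 200430 to 433425 at 0 h. In PanCK epidermis every member had at least 17 counts in each 0 h sum. Of the 76 members of PanCK deep dermis, 39 had under 10 counts in at least 1 of the 0 h sums, so their ratios rest on few counts. A member near the threshold is separated from a non-member by little. In PanCK epidermis the highest ratio of any mouse was 0.595 for the member nearest the limit and 0.603 for the nearest probe outside it, and the lowest 0 h mean was 100.2 CPM inside and 98.4 CPM outside. The corresponding ratios in PanCK deep dermis were 0.599 and 0.604, and the 0 h means 100.6 and 99.9 CPM.

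The members of PanCK epidermis ranged between 100.2 and 1878 CPM at 0 h, with a median of 206 CPM, and 10 of them stood at 500 CPM or more. Their 6 h mean over their 0 h mean ran between 0.10 and 0.57, with a median of 0.40. Together they took up 1.71% ± 0.26 of the counts of PanCK epidermis at 0 h, 0.55% ± 0.03 at 6 h and 0.37% ± 0.04 at 24 h (SD, n = 3). The 45 members were 3.39% of the 1327 probes at or over 100 CPM at 0 h in that layer, a share fixed by the rule. The median ratio of those 1327 probes was 0.80, so the middle of the well-counted probes was also lower at 6 h on the CPM scale.

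The members of PanCK deep dermis ranged between 100.6 and 3673 CPM at 0 h, with a median of 134.5 CPM, and 4 of them stood at 500 CPM or more. Their 6 h mean over their 0 h mean ran between 0.035 and 0.58, with a median of 0.35. They took up 1.84% ± 0.13 of the counts of PanCK deep dermis at 0 h, 0.62% ± 0.05 at 6 h and 0.56% ± 0.03 at 24 h (SD, n = 3). They were 5.54% of the 1373 probes at or over 100 CPM there, whose median ratio was 0.87.

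The 2 members with the highest 0 h level in PanCK epidermis were members in that layer only. RTS0068401 had 2325, 2014 and 1295 CPM at 0 h in mice 208, 210 and 219, then 341, 373 and 490 CPM at 6 h, and 208, 170.0 and 272 CPM at 24 h. RTS0068409 had 2360, 1915 and 1272 CPM at 0 h in the same mice, then 549, 362 and 542 CPM at 6 h, and 289, 197 and 221 CPM at 24 h. For both probes all 6 h values lay below all 0 h values, and all 24 h values lay below all 6 h values. Mouse 219 was the lowest of the 3 at 0 h in both. RTS0068401 in PanCK deep dermis had 1071, 1469 and 484 CPM at 0 h and 234, 288 and 361 CPM at 6 h, so mouse 219, whose ratio was 0.75, kept it out of the deep dermal list. The same mouse, with a ratio of 0.74, kept RTS0068409 out. Both probes thus fell below the fold limit in 2 of 3 mice in the layer that did not choose them.

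The highest of the 8 members in both layers was RTS0068351. In PanCK epidermis it had 818, 782 and 548 CPM at 0 h, 188, 231 and 216 CPM at 6 h, and 115.5, 134 and 141 CPM at 24 h in mice 208, 210 and 219. The same probe in PanCK deep dermis had 448, 527 and 317 CPM at 0 h, 87.6, 178 and 180.3 CPM at 6 h, and 289, 305 and 213 CPM at 24 h. The 24 h values therefore lay below the 6 h values in the epidermis and above them in the deep dermis, in every mouse. RTS0068340 showed the lowest 6 h ratio of the epidermal list. It had 614, 570 and 447 CPM at 0 h in PanCK epidermis, 64.3, 62.1 and 40.8 CPM at 6 h, and 46.2, 44.8 and 40.3 CPM at 24 h. The deep dermal values were 281, 338 and 234 CPM at 0 h, 87.6, 75.9 and 103 CPM at 6 h, and 119, 189 and 122 CPM at 24 h. Its mean at 6 h was 0.10 times that at 0 h in the epidermis and 0.31 times in the deep dermis.

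The other 6 members in both layers were RTS0067227, RTS0068335, RTS0071700, RTS0078246, RTS0081231 and RTS0081249. Their 0 h means lay between 107 and 249.8 CPM in PanCK epidermis and between 100.6 and 181 CPM in PanCK deep dermis. Members in both layers made up 17.8% of the epidermal list and 10.5% of the deep dermal list. Of the 45 epidermal members, 26 reached 100 CPM in PanCK deep dermis, and 33 of the 76 deep dermal members did so in PanCK epidermis. Of those that could have met both criteria, 8 of 26 and 8 of 33 did. Among all 889 probes at 100 CPM in both layers, 26 met the epidermal criterion, 33 the deep dermal one and 8 both. The overlap was not tested. With a floor of 50 CPM the lists held 90 and 232 probes, with 11 in both.

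The highest member of the deep dermal list was RTS0069794, with a 0 h mean of 3673 CPM against 757 CPM for the next. Its level there was 2440, 4792 and 3786 CPM at 0 h in mice 208, 210 and 219, 832, 1036 and 1043 CPM at 6 h, and 391, 720.3 and 305 CPM at 24 h. It was also abundant in PanCK epidermis, with 1656, 2298 and 2605 CPM at 0 h, 1093, 1201 and 1609 CPM at 6 h, and 300.2, 215 and 684 CPM at 24 h. Its 6 h ratio in the epidermis was 0.60 over the means, above the limit in 2 mice, and its 24 h ratio was 0.18. RTS0077174, the next in level, had 895, 709 and 667 CPM at 0 h in PanCK deep dermis, 234, 304 and 348 CPM at 6 h, and 51.0, 73.6 and 142 CPM at 24 h. In PanCK epidermis it was low and scattered at 0 h, with 314, 108 and 191 CPM, and had 173, 155 and 128 CPM at 6 h, so the 2 times overlapped there.

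Members chosen in one layer only were also read in the other. Of the 37 epidermis-only members, 19 were under 100 CPM in PanCK deep dermis at 0 h. Of the 18 at or over it, 7 were at or under 0.6 times 0 h in 2 mice, 7 in 1 mouse and 4 in none. Across the list, 11 of the 37 were lower at 6 h in all 3 mice in PanCK deep dermis and 0 were higher in all 3, with a median ratio of 0.69. Of the 1327 probes at 100 CPM in PanCK epidermis, 22.5% were lower and 19.4% higher there in all mice, with a median ratio of 0.97. Of the 68 deep-dermis-only members, 43 were under 100 CPM in PanCK epidermis. Of the 25 at or over it, 9 were at or under the limit in 2 mice, 9 in 1 mouse and 7 in none. There 32 of the 68 were lower at 6 h in all mice and 2 were higher in all, with a median ratio of 0.76. Of the 1373 probes at 100 CPM in PanCK deep dermis, 34.7% were lower and 9.91% higher in PanCK epidermis in all mice, with a median ratio of 0.87. Both classes exclude, by definition, the members that met the criterion in the other layer.

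A test of the members chosen in one layer was possible in the other layer, whose values the criterion did not use. With edgeR's quasi-likelihood test in PanCK deep dermis, fitted over 1898 probes with the mouse as a block and Benjamini-Hochberg adjustment, 23 of the 45 epidermis-criterion members passed the filter on low counts and 9 were called lower at 6 h than at 0 h (adjusted p under 0.05), against 1.9% of all probes tested. Of these 9, 4 were members of both layers. The other 5, all epidermis only, were RTS0068350 (log2 fold change -1.83 ± 0.32 SE, adjusted p = 0.00437), RTS0068401 (-1.90 ± 0.35, adjusted p = 0.00545), RTS0068363 (-1.59 ± 0.30, adjusted p = 0.00706), RTS0068409 (-1.62 ± 0.32, adjusted p = 0.0076) and RTS0068366 (-1.57 ± 0.40, adjusted p = 0.0406). The first 4 were lower in 3 of 3 mice and RTS0068366 in 2 of 3. RTS0068350 and RTS0068363 were named after their values were seen, and RTS0068366 was named by its p-value at 6 h in CD45 epidermis. The count was 0 without mouse 210. Members can pass the filter through their 0 h sums, where they are high, which favours lower calls among those tested.

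In PanCK epidermis, 65 of the 76 deep-dermis-criterion members passed the filter among 6076 probes, and 3 were called lower at 6 h, against 0.494% of all. The 3 were RTS0068340, RTS0068351 and RTS0081231, which are members of both layers, and each was lower in 3 of 3 mice. Without mouse 210 the count was 1. The median log2 fold change of the 65 was -0.40, beside 0.01 over all probes tested. The 1327 probes at 100 CPM in PanCK epidermis had a median of -0.48 at 6 h under TMM scaling. The middle of the well-counted probes there was thus no higher than that of the 65. That median is of log ratios of means and not of fitted changes. It is also not matched to the 65 for level, since only 33 of the 76 deep dermal members reached 100 CPM there.

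The choice itself was also read in a mouse that took no part in it. When the criterion was applied to 2 mice, the ratio of 6 h to 0 h in the mouse left out had a median of 0.612, 0.632 and 0.715 for mice 208, 210 and 219 in PanCK epidermis, beside 0.737, 0.836 and 0.894 over all probes at 100 CPM. For PanCK deep dermis the medians were 0.697, 0.736 and 0.590 in mice 208, 210 and 219, beside 0.915, 0.958 and 0.965 over all such probes. The share at or under 0.6 in the mouse left out was 48.3%, 45.7% and 31.7% in the epidermis, against 28.6%, 17.8% and 14% of all probes, and 44.3%, 34.3% and 51.2% in the deep dermis, against 25.4%, 15.4% and 25.1%. The mouse left out thus gave smaller falls than the 3-mouse medians of 0.40 and 0.35, and at most 51.2% of the probes chosen by the other mice met the limit again. The list chosen in 2 mice held 89 to 139 probes in the epidermis and 124 to 208 in the deep dermis. Choosing in 2 mice drops a condition of the rule, which by itself lengthens the list, so these lengths do not measure differences between mice.

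The CD45 areas come from the same biopsies and mice, but took no part in the choice. The 0 h levels of the members there were not set against a background level, so whether each was present was not tested. The epidermis-only members had a median of 176 CPM in CD45 epidermis, against 213 CPM in PanCK epidermis, and 26 of 37 were lower in the CD45 areas in all mice. The deep-dermis-only members had a median of 68.2 CPM in CD45 deep dermis, against 134.5 CPM in PanCK deep dermis, and 52 of 68 were lower in the CD45 areas in all mice. The rule sets a minimum level in the PanCK layers only, and of all probes at that level 59.2% in the epidermis and 49.2% in the deep dermis were likewise lower in the CD45 areas in all mice. How much epithelial RNA the CD45 areas held was not tested, and the probes have no gene names to test it with.

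In CD45 epidermis 29 of the 113 members passed the filter among 907 probes. Of these, 9 were called lower at 6 h than at 0 h, 0 were called higher, and 1.43% of all probes tested were called lower (edgeR, adjusted p under 0.05). Members can pass the filter through their 0 h sums, where they are high, which favours lower calls among those tested. The 9 are therefore no support for a fall of the members as a set. All 9 met the epidermal criterion, and 2 of them met both. RTS0068366 had 89.5, 184 and 165 CPM at 6 h in mice 208, 210 and 219, against 738, 803 and 412 CPM at 0 h, which is -2.09 ± 0.33 (SE) on the log2 scale, adjusted p = 0.00469 in edgeR. RTS0068351 had 44.8, 129 and 145 CPM at 6 h, against 506, 560 and 471 CPM at 0 h, a log2 fold change of -2.20 ± 0.36 (adjusted p = 0.00469). The 6 h and 0 h values of both probes did not overlap. The other 7 were RTS0068340, RTS0068350, RTS0068376, RTS0068401, RTS0068409, RTS0079251 and RTS0080437, with log2 fold changes between -2.76 and -1.57, each lower in 3 of 3 mice. Leaving out mouse 208, 210 or 219 gave 13, 5 and 5 calls, and limma on mean log2(CPM + 1) gave 2. Over all 29 tested members the median log2 fold change at 6 h was -0.96, beside -0.01 over all probes tested. It was -1.74 for the 4 tested members of both layers and -0.50 for the 8 of deep dermis only.

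RTS0069794, the most abundant deep dermal member, was not called at 6 h in CD45 epidermis. It had 1007, 772 and 1364 CPM there at 6 h, against 1543, 1230 and 1918 CPM at 0 h, a log2 fold change of -0.58 ± 0.26 (adjusted p = 0.315 in the edgeR fit). Of the 12 deep-dermis-criterion members tested in CD45 epidermis, 2 were called lower, and both were members of both layers.

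In CD45 deep dermis 15 members passed the filter among 624 probes, and 4 were called lower at 6 h, with 0 higher. These 4 were all the lower calls of that fit, 0.641% of the probes tested, and they too can have passed the filter through their 0 h sums. RTS0068401 had 207, 189 and 176 CPM at 6 h in mice 208, 210 and 219, against 755, 2131 and 256 CPM at 0 h, a log2 fold change of -2.79 ± 0.44 (adjusted p = 0.0201). RTS0068409 had 207, 210.5 and 117 CPM at 6 h, against 817, 1839 and 313 CPM at 0 h, a log2 fold change of -2.72 ± 0.45 (adjusted p = 0.0201). Both were lower in 3 of 3 mice, and mouse 210 stood far above the other 2 at 0 h. The other 2 were RTS0068363 and RTS0068366, with log2 fold changes of -2.78 and -2.62, lower in 3 of 3 and in 2 of 3 mice. RTS0068363 was chosen for naming after its values were seen. The count was 0 without mouse 208, 0 without mouse 210 and 0 with limma on mean log2(CPM + 1). All 4 were among the 11 epidermis-only members tested. The 2 deep-dermis-only members tested were not called, with a median log2 fold change of -1.86 and an unadjusted p under 0.05 for both. The median log2 fold change of the 15 tested members was -1.31, beside 0.03 over all probes tested.

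The change at 6 h was also compared between the 2 CD45 layers. A fit of the layer by time term over 1287 probes, with mouse and time as a block, tested 38 members and called 0, beside 0.155% of all probes, and 5 of the 38 had an unadjusted p under 0.05. Other scalings, no filter and the fits without 1 mouse also called 0 members. In CD45 adipose, with 2 mice at 6 h, 19 members were tested among 839 probes, 0 were called at 6 h and 3 had an unadjusted p under 0.05, with 0% of all probes called lower. DESeq2 and limma also called 0 members there, and leaving out mouse 219 gave 1, RTS0068401. That fit has 1 sample at 6 h, from mouse 210, which is assumed to vary like the other groups.

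By 24 h the members of PanCK epidermis had not returned to their 0 h level. Of the 45, 33 were at or under 0.6 times 0 h in all 3 mice, 12 lay between and 0 were at or over 0.8 times 0 h in all 3 mice. The median 24 h ratio was 0.28, with a range of 0.080 to 0.65. On means, 35 of the 45 were lower at 24 h than at 6 h, 21 of them in all 3 mice, and 2 were higher in all 3. These values share the 0 h and 6 h sums with the choice, and the layer as a whole was lower at 24 h on the CPM scale: over the 1327 probes at 100 CPM the median 24 h ratio was 0.50, 34.5% were at or under 0.6 in all mice, 5.73% were at or over 0.8 in all mice, and 84.5% had a lower mean at 24 h than at 6 h. Under TMM scaling that median was 0.37 and 61.2% were at or under 0.6, while 40 of the 45 members were. Set over the median of the layer, the members' median at 24 h was 0.55 times it on CPM and 0.54 times it under TMM, and 40 of 45 members lay below it under both.

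The lowest 24 h ratios of the epidermal list were those of RTS0068340 and RTS0069961. RTS0069961 had 444, 422 and 403 CPM at 0 h in mice 208, 210 and 219, 173, 107 and 227 CPM at 6 h, and 46.2, 53.7 and 30.2 CPM at 24 h. Its values separated fully at each step.

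The highest 24 h ratios in the epidermis were those of RTS0068205 and RTS0077971, both near 0.65. RTS0068205 had 94.8, 104 and 130.5 CPM at 0 h, 39.6, 48.3 and 46.7 CPM at 6 h, and 34.6, 89.5 and 90.6 CPM at 24 h. RTS0077971 had 94.8, 115 and 112 CPM at 0 h, 54.4, 65.6 and 58.3 CPM at 6 h, and 104, 35.8 and 70.5 CPM at 24 h. In each, 1 mouse went the other way from 6 h to 24 h, and the 24 h sums held 3 to 10 counts of these probes. The 2 members higher at 24 h than at 6 h in all mice, named after their values were seen, were RTS0069963 and RTS0071703. RTS0071703 had 80.8, 89.5 and 80.5 CPM at 24 h, against 64.3, 58.7 and 52.5 CPM at 6 h.

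Members of higher level stayed lower in both layers. In PanCK epidermis 23 of the 25 members at 200 CPM or more at 0 h were still at or under 0.6 in all mice at 24 h, against 10 of the 20 under 200 CPM. The counts for PanCK deep dermis were 21 of 24 and 19 of 52. Level and the number of counts behind a ratio go together here, and their part in this difference was not tested. The same split by level was not made over all probes at 100 CPM.

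The deep dermal members were divided at 24 h. Of the 76, 40 were at or under 0.6 times 0 h in all 3 mice, 34 lay between and 2 were at or over 0.8 in all 3. The median 24 h ratio was 0.33 and the range 0.083 to 1.89. On means, 37 were lower and 39 higher at 24 h than at 6 h, with 17 lower in all mice and 15 higher in all. Over all 1373 probes at 100 CPM in that layer the median 24 h ratio was 0.84, with 16.2% at or under 0.6 in all mice and 32.5% at or over 0.8, and TMM scaling left that median at 0.85. These values, too, share the 0 h and 6 h sums with the choice.

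The highest 24 h ratios of the deep dermal list were those of RTS0071700 and RTS0069710. RTS0071700 had 61.4, 123.5 and 117 CPM at 0 h in mice 208, 210 and 219, 29.2, 60.7 and 51.5 CPM at 6 h, and 153, 137 and 173 CPM at 24 h. Its 24 h values lay above all its 6 h and 0 h values. RTS0069710 had 87.8, 143 and 133 CPM at 0 h, 14.6, 41.7 and 77.3 CPM at 6 h, and 425, 78.9 and 183 CPM at 24 h, so that mouse 208 carried its 24 h mean of 229 CPM ± 178 (SD). The other member back at 24 h was RTS0061777, named after its values were seen, with 68.0, 147 and 142 CPM at 24 h, against 35.1, 156 and 133 CPM at 0 h.

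The lowest 24 h ratios of the deep dermal list rested on few counts. RTS0075328 had 13, 13 and 7 counts at 0 h, 3, 4 and 2 at 6 h, and 0, 5 and 0 at 24 h in mice 208, 210 and 219. RTS0080972 had 68, 3 and 1 counts at 0 h, 1, 2 and 0 at 6 h, and 2, 2 and 1 at 24 h, so that 1 mouse supplied its level of 211 CPM at 0 h and met the 100 CPM floor for the mean. With at least 10 counts required in every 0 h sum, a requirement added after the data were seen, 37 of the 76 deep dermal members and all 45 epidermal members were left, with 4 members in both layers. Of those 37, 29 were at or under 0.6 in all mice at 24 h.

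For 7 of the 8 members of both layers the 24 h ratio was lower in PanCK epidermis than in PanCK deep dermis, RTS0068335 being the exception with 0.38 and 0.36. In PanCK epidermis all 8 had a lower mean at 24 h than at 6 h and 6 were still at or under 0.6 in all mice. Deep dermal means were higher at 24 h than at 6 h for 7 of the 8, 5 of them in all mice, while 3 were still at or under 0.6 in all mice, and 1, RTS0071700, was back. Their median 24 h ratio was 0.27 in the epidermis and 0.49 in the deep dermis, beside 0.50 and 0.84 over all probes at 100 CPM in those layers, so both the members and the layers as a whole stood lower in the epidermis. Of all such probes, 84.5% in the epidermis and 52.2% in the deep dermis had a lower mean at 24 h than at 6 h. This comparison uses the sums that chose the members and was not tested. The list summed over its members moved likewise: the 45 epidermal members held 0.83% ± 0.17 of the counts of PanCK deep dermis at 0 h, 0.40% ± 0.07 at 6 h and 0.59% ± 0.09 at 24 h (SD, n = 3), and the 24 h share was above the 6 h share in each mouse.

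The CD45 areas were also read at 24 h. In CD45 epidermis 22 of the 29 tested members were called lower at 24 h than at 0 h and 1 higher, where 26.9% of all 907 probes were called lower and 25.1% higher. The fit without mouse 210 called 12 in either direction, against 23 with all mice. RTS0069794 had 77.2, 45.0 and 168 CPM at 24 h, against 1543, 1230 and 1918 CPM at 0 h, a log2 fold change of -3.64 ± 0.32 (adjusted p = 1.74e-07 in edgeR). RTS0068401 had 142, 111 and 183 CPM at 24 h, against 2099, 1767 and 835 CPM at 0 h, a log2 fold change of -2.91 ± 0.39 (adjusted p = 1.14e-05). The 24 h and 0 h values of both were far apart in every mouse.

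The single member called higher in CD45 epidermis at 24 h was RTS0066988, a deep-dermis-only member named after its values were seen. It had 219, 448 and 321 CPM at 24 h (17, 189 and 21 counts), against 16.6, 18.4 and 70.6 CPM at 0 h (2, 4 and 6 counts). Since its counts were low at 0 h and 6 h, it entered the test through the 24 h sums, where it is high, and its call is no support for a change in the members. RTS0066988 in PanCK deep dermis had 34.0, 57.8 and 20.3 CPM at 24 h, against 105, 169 and 133 CPM at 0 h. In every fit here, members called lower at 6 h or 24 h can likewise pass the filter through their 0 h sums, where they are high. How many of them did so was not counted, so their calls are likewise no support for a fall of the members as a set.

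In CD45 deep dermis 9 of the 15 tested members were called lower at 24 h, beside 6.73% of all 624 probes, and 0 higher. Among them RTS0069794 had 120, 132 and 147 CPM at 24 h, against 891, 1226 and 1534 CPM at 0 h, a log2 fold change of -3.40 ± 0.71 (adjusted p = 0.0183 in edgeR). RTS0068350 and RTS0068409, also called there, were lower in only 2 of 3 mice. In CD45 adipose 3 of 19 tested members, RTS0068350, RTS0068401 and RTS0068409, were called lower at 24 h, beside 1.07% of all 839 probes. In adipose tissue the 0 h values of RTS0068401 were 760, 1720 and 114 CPM in mice 208, 210 and 219, and mouse 219 was not lower at 24 h, with 141 CPM. Mouse 219 was also not lower for RTS0068350, with 113.5 CPM at 0 h and 211.8 CPM at 24 h.

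Read across the PanCK layers at 24 h, 25 of the 65 deep-dermis-criterion members tested in PanCK epidermis were called lower than at 0 h and 0 higher, beside the 10.1% of all probes called lower there. RTS0069794 was among them, with a log2 fold change of -2.41 ± 0.27 (adjusted p = 1.70e-06 in edgeR). The 10.1% is not matched for level. In PanCK epidermis the 65 had a median log2 fold change of -0.78 at 24 h, beside 0.004 over all probes tested. The 1327 probes at 100 CPM in that layer had a median of -1.44 under TMM scaling, lower than that of the 65. That median is of log ratios of means and is not matched for level either. Only 33 of the 76 deep dermal members reached 100 CPM in PanCK epidermis. Of the 23 epidermis-criterion members tested in PanCK deep dermis, 7 were called lower and 1 higher, beside 14.6% and 7.96% of all probes. That 1 was RTS0068911, named after its values were seen, with 255, 405 and 569 CPM at 24 h, against 70.2, 169 and 250.2 CPM at 0 h, a log2 fold change of 1.20 ± 0.32 (adjusted p = 0.0102).

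Many epidermal members stood close together in the identifier series, a feature the rule did not use. Of the 45, 26 (57.8%) had another epidermal member within 10 identifiers, beside 6.33% of the 1327 probes at 100 CPM in that layer. Of the 76 deep dermal members, 6 (7.89%) had another deep dermal one, beside 9.18% of 1373 probes. The stretch RTS0069956 to RTS0069963 holds 8 consecutive identifiers, and all 8 were epidermal members, with 0 h means of 200.7 to 547.5 CPM, 6 h ratios of 0.23 to 0.40 and 24 h ratios of 0.10 to 0.39. These 8 in PanCK deep dermis had 16.5 to 60.0 CPM at 0 h, and none passed the filter there. The stretch RTS0068335 to RTS0068376 holds 10 members among 16 probes at 100 CPM and 38 listed, and RTS0081222 to RTS0081237 holds 4 members among 4 at 100 CPM. With RTS0068401 and RTS0068409 beside it, the stretch from RTS0068335 held 7 of the 9 members called lower in CD45 epidermis and all 4 called in CD45 deep dermis. The files do not say whether neighbouring identifiers share a gene or target, so these members may not be independent, and the stretches were picked after their values were seen.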

How the data were processed

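GeoMx spatial profiling counts oligonucleotide tags released from outlined areas of a tissue section. The deposited files hold one count per probe identifier and segment. Their headers name the GeoMx NGS Pipeline, version 2.3.3.10, as the software that wrote them. The panel, genome build and handling of duplicate reads are not stated by headers or labels, and probes are not paired with genes. The no template control was not used.

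Segments of the same mouse, compartment and time were added together, since the mouse is the replicate and segments of 1 biopsy are not independent. Members follow the rule on CPM in the report. They, the classes and the settings were chosen with earlier results of these data known. Lists of genes and cell type markers could not be applied to unnamed probes. Each compartment was fitted alone over 0, 6 and 24 h with edgeR 4.0.16 in R 4.3.3 (TMM scaling, filterByExpr at a minimum count of 10, quasi-likelihood F test, Benjamini-Hochberg over all tested probes, threshold 0.05). The fit was also run on simulated counts with a fixed spread and no mouse effect, without CD45 adipose. That run does not check the real spread or the pairing. DESeq2 1.42.0, limma 3.58.1 with a pseudocount of 1, other scalings, no filter and the fits without 1 mouse were alternatives. Another alternative left out 1 shallow segment, with under 10% of the median total of all segments. Each mouse has its own scan in the labels, so scan and mouse are 1 block. The mouse block comes from mouse numbers that the labels repeat at every time. Deviations of same-numbered samples from their group means correlated with a median r of 0.037 over 43 pairs (-0.217 to 0.248), so the pairing rests on the labels. P-values measure the spread between these mice only.

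Named probes are, by class, the 2 members of highest 0 h level, in each CD45 layer the 2 called members of smallest p at 6 h, and in each PanCK layer the 2 highest and 2 lowest 24 h ratios. Python 3.11.15 was used for the sums and ratios.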

Additional observations from a re-analysis of the deposited data

Results flagged for a closer look

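Of the 113 members, 2 moved in opposite directions in the 2 PanCK layers in every mouse at 6 h against 0 h, and 7 did so at 24 h against 0 h. The difference between the layers was not tested, and the share of all probes with opposite directions was not counted. Over all probes at 100 CPM the median 24 h ratio was 0.50 in PanCK epidermis and 0.84 in PanCK deep dermis. At 6 h, RTS0066555 and RTS0067935 had means of 1.23 and 1.39 times 0 h in PanCK epidermis and 0.37 and 0.35 times 0 h in PanCK deep dermis, where they were chosen. At 24 h, RTS0068911, RTS0069963, RTS0071700 and RTS0077858 were lower than at 0 h in all mice in PanCK epidermis (0.36, 0.39, 0.35 and 0.25 times) and higher in all mice in PanCK deep dermis (2.51, 1.48, 1.53 and 1.86 times). The other 3, RTS0067935, RTS0075498 and RTS0080972, were higher at 24 h in the epidermis (1.14, 1.89 and 4.01 times) and lower in the deep dermis (0.30, 0.14 and 0.086 times). The epidermal values of RTS0075498 and RTS0080972 rest on 9 and 10 counts at 24 h, against 18 and 11 counts at 0 h. In the deep dermis RTS0080972 also rests on few counts, given above, and 1 mouse supplied most of its 0 h level. RTS0069963 is 1 of 8 neighbouring probes with only 16.5 to 60.0 CPM at 0 h in PanCK deep dermis, and none of the 8 was tested there.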

How the results depend on the processing

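Membership depended on the settings. The epidermal list held 45 probes on CPM, 89 under TMM, 86 under DESeq2 size factors and 81 under upper quartile scaling, and each of these held all 45; the deep dermal list of 76 shared 70, 74 and 65 with its versions under those scalings. With a floor of 50 or 200 CPM the epidermal list held 90 or 25 and the deep dermal list 232 or 24, with 2 probes in both at 200 CPM. With a limit of 0.5 or 0.7 the epidermal list held 23 or 124, the deep dermal list 34 or 124, and both layers 2 or 19. At least 10 counts in every 0 h sum left 37 deep dermal members and 4 in both. With the members chosen anew, 69, 67 and 66 epidermal probes were still low at 24 h under TMM, DESeq2 and upper quartile scaling, against 33 on CPM. The median ratio of all epidermal probes at 100 CPM was 0.716 at 6 h and 0.368 at 24 h under TMM, against 0.796 and 0.501 on CPM.

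Leaving out 1 mouse gave 89 to 139 epidermal members, 124 to 208 deep dermal members, 10 to 17 in both, 55 to 100 and 73 to 119 still low at 24 h in the epidermis and deep dermis, and medians of 0.612 to 0.715 and 0.590 to 0.736 in the mouse left out. The rule then asks for the limit in fewer mice, which by itself raises the counts of members and of those still low. Calls at 6 h ranged from 5 to 13 in CD45 epidermis, 0 to 5 in CD45 deep dermis, 0 to 1 in CD45 adipose, 0 to 9 across into PanCK deep dermis and 1 to 3 across into PanCK epidermis. At 24 h in CD45 epidermis they ranged from 12 to 25. Limma on mean log2(CPM + 1) called 2, 0 and 1 members in CD45 epidermis, CD45 deep dermis and across into PanCK deep dermis. The causes were not tested beyond the loss of samples in the fits without 1 mouse.

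Without the replicate block the counts were 9 in CD45 epidermis, 6 in CD45 deep dermis, 7 and 3 across the PanCK layers and 23 at 24 h in CD45 epidermis, against 9, 4, 9, 3 and 23 with it. Direction under the alternatives was compared only for probes named by the rule, at 6 h in CD45 epidermis and CD45 deep dermis, and none reversed there. The 24 h calls, the calls in the PanCK layers and adipose, and probes named after their values were seen were not compared. The median ratio of all deep dermal probes at 100 CPM did change its order between the times: it was 0.881 at 24 h and 0.855 at 6 h under upper quartile scaling, against 0.843 and 0.875 on CPM. The count filter left 29, 15 and 19 of 113 members to test in the CD45 epidermis, deep dermis and adipose compartments, so depth limits what could be read there.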
